A study of Mus musculus with 6 samples.

Results

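Secretory granule and prohormone processing genes are described here as a group of 10: the convertases Pcsk1 and Pcsk2, their partners Pcsk1n and Scg5, the carboxypeptidase Cpe, the granins Chga, Chgb, Scg2 and Scg3, and the granule synaptotagmin Syt4. They were chosen by gene name, with earlier results of these data known, and every probe carrying such a name was kept. The 10 genes are covered by 13 probes and 22 spots, of 39429 probes in all, and belong to the 21072 genes or unnamed transcripts tested of 30397 on the arrays.

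Peptide hormones are made as larger precursors that are stored in dense granules and released when the cell is stimulated. On the way, convertases cut the precursor at basic residues, a carboxypeptidase trims those residues from the new ends, and granins help to pack the cargo. Hormone cells of the anterior pituitary, including somatotropes, carry such granules in large numbers.

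RNA came from anterior pituitaries of female mice, with the neurointermediate lobe removed, whose dissociated cells were sorted as a side population (cells that pump out Hoechst dye) without those highest in Sca1. All mice, controls included, carried iDTR, an inducible diphtheria toxin receptor, and all were given diphtheria toxin. The dose was 4 ng for each g of body weight, 2 times daily. The groups were GHCre/iDTR after 3 days (2 arrays), -/iDTR control after 3 days (2 arrays), GHCre/iDTR after 10 days (1 array) and -/iDTR control after 10 days (1 array). In GHCre mice the Cre is driven by the growth hormone gene, so that the receptor is meant to be switched on in growth hormone cells. The free text descriptions of some samples disagree with their titles, and the titles, which match the genotype and treatment fields, were used. Beyond being called independent, the replicates are not said to come from separate animals or pools, so p-values measure only the spread between these samples. The samples are bulk RNA, in which fewer cells of a type and less RNA per cell cannot be told apart.

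A level is given on the log2 scale, with the 75th percentile of signal on its array as 0. A difference is a log2 value given ± the standard error (SE) from the limma fit. The 75th percentile of signal ran from 186 to 299 over the 6 arrays, and 53.8% to 65.8% of probes were well above background. Replicate 1 of both 3 day groups shared slide 1, replicate 2 of both and the GHCre array of 10 days shared slide 3, and the control of 10 days stood alone on slide 2. Gh, the growth hormone transcript of the cells targeted by the Cre, had levels of 5.46 and 2.20 in the GHCre arrays of 3 days, against 5.69 and 3.65 in the controls. After 10 days it stood at 2.21 in the GHCre array, against 7.86 in the control. Of 8 markers of pituitary stem cells, the label of this fraction, 5 were well above background on all 6 arrays, whereas Sox2 was well above background on none.

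Probe sequences are shown for the genes with more than 1 probe, because their probes did not always give the same answer. Each probe has 60 bases, of which the last 30 are printed 5′ to 3′, and positions are those of the whole probe in the mm9 annotation of the files. Capitals mark AATAAA, the common polyadenylation signal, which 3 of the 13 probes held (Cpe A_55_P2024704, Scg2 and Scg5), against 12.6% of all probes.
Cpe A_55_P2025038, the probe that represents Cpe, at chr8:67071401-67071460 (minus strand): gttaatgccacttcagagtttggggttttg
Cpe A_55_P2024704, chr8:67071349-67071408 (minus strand): aattgcattctgatgAATAAAggcaaaaaa
Cpe A_55_P2152248, chr8:67085401-67085460 (minus strand): caaaaactccctcatcagctacctggagca
Pcsk2 A_51_P229613, the probe that represents Pcsk2, at chr2:143639649-143639708 (plus strand): tttgctcgctgtcaatgattattttcacta
Pcsk2 A_55_P1972963, chr2:143641856-143641915 (plus strand): attttaaaaactgaaaagcaagtgaataac
The first pair of Cpe probes overlap by 8 bases, and the third lies 13941 bases upstream of them. The Pcsk2 probes lie 2148 bases apart. Exon and UTR annotation of this build was not used here.

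Promoter windows are shown for 4 members that carry a cyclic AMP response element or a variant of it, an element known from granin gene promoters. RefSeq promoters (GRCm38.p6, 250 bases before to 50 after the start site) were matched by symbol for 8 of the 10 genes, not for Cpe and Syt4. The full element TGACGTCA, which reads the same on both strands, was found in 3 of the 8, against 1.79% of 32851 promoters. The variant TGACGTAA, searched on both strands and never the same site as the full element, was found in 1 of the 8, against 0.5% of promoters. Both motifs were picked after the promoters had been searched for several. Capitals mark the motif.
Chgb, chr2:132781544-132781603 (GRCm38.p6, plus strand), motif 72 to 65 bases before the start site: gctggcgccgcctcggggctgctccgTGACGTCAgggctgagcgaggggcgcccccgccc
Scg2, chr1:79440061-79440120 (GRCm38.p6, minus strand), motif 68 to 61 bases before the start site: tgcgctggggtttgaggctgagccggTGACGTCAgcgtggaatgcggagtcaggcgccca
Pcsk1, chr13:75089753-75089812 (GRCm38.p6, plus strand), motif 78 to 71 bases before the start site: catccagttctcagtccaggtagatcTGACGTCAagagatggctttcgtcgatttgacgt
Chga, chr12:102554871-102554930 (GRCm38.p6, plus strand), motif 44 to 37 bases before the start site: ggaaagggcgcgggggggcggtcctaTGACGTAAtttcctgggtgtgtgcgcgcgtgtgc
A match is a description of these letters and not evidence of binding.

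The comparison of GHCre with control after 3 days asks how the fraction differs early in the ablation. All 10 genes had a lower mean level in the GHCre arrays, against 52% of all genes tested, and none passed the test. The differences ran from -0.32 for Cpe to -1.98 for Syt4, with a median of -0.61, against -0.037 over all genes. Pcsk2, Scg5 and Syt4 were lower by 1 or more, 3 of the 10, against 11.6% of all genes. The limma fit called 0 of the 10 genes, against 0% of all 21072 genes at an adjusted p under 0.05. At an unadjusted p under 0.05 it held 0 of the 10 and 1390 of all genes. The lowest adjusted p among the 10 was 0.803, for Pcsk2. This test, with 2 arrays a group, therefore could not tell any of these differences from the spread between arrays. That is not evidence that there was no difference.

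All 10 genes were well above background on all 6 arrays, as were 70.2% of the genes tested, and no spot of theirs was saturated. Both GHCre arrays lay below both controls for 6 of the 10 (Pcsk2, Scg5, Cpe, Chgb, Scg2 and Syt4), against 21.3% of all genes, and both lay above both controls for 0 of the 10, against 16.6%. The count with both GHCre arrays below both controls fell to 3 with quantile normalization and with normexp background correction and quantile normalization. It was also 3 in the deposited series table. The share of all genes under these settings was not computed. Within both slides the GHCre array was lower for 10 of 10, against 31.6% of all genes, with median differences of -0.90 on slide 1 and -0.43 on slide 3.

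The arrays did not contribute equally. Replicate 1 of the GHCre group of 3 days was the lowest of the 6 arrays for 10 of the 10 genes, against 23.8% of all genes. Without it the median difference was -0.25 and 8 of the 10 stayed below 0, with Pcsk1 at 0.78 and Chga at 0.25. The median was -1.38 when replicate 2 of GHCre was left out instead, and -1.06 when it was replicate 1 of the controls. With replicate 2 of the controls left out, the highest of the 6 arrays for 6 of the 10 genes (17.7% of all genes), 8 stayed below 0, with Pcsk1 at 0.76 and Pcsk1n at 0.17.

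**Figure D1:**
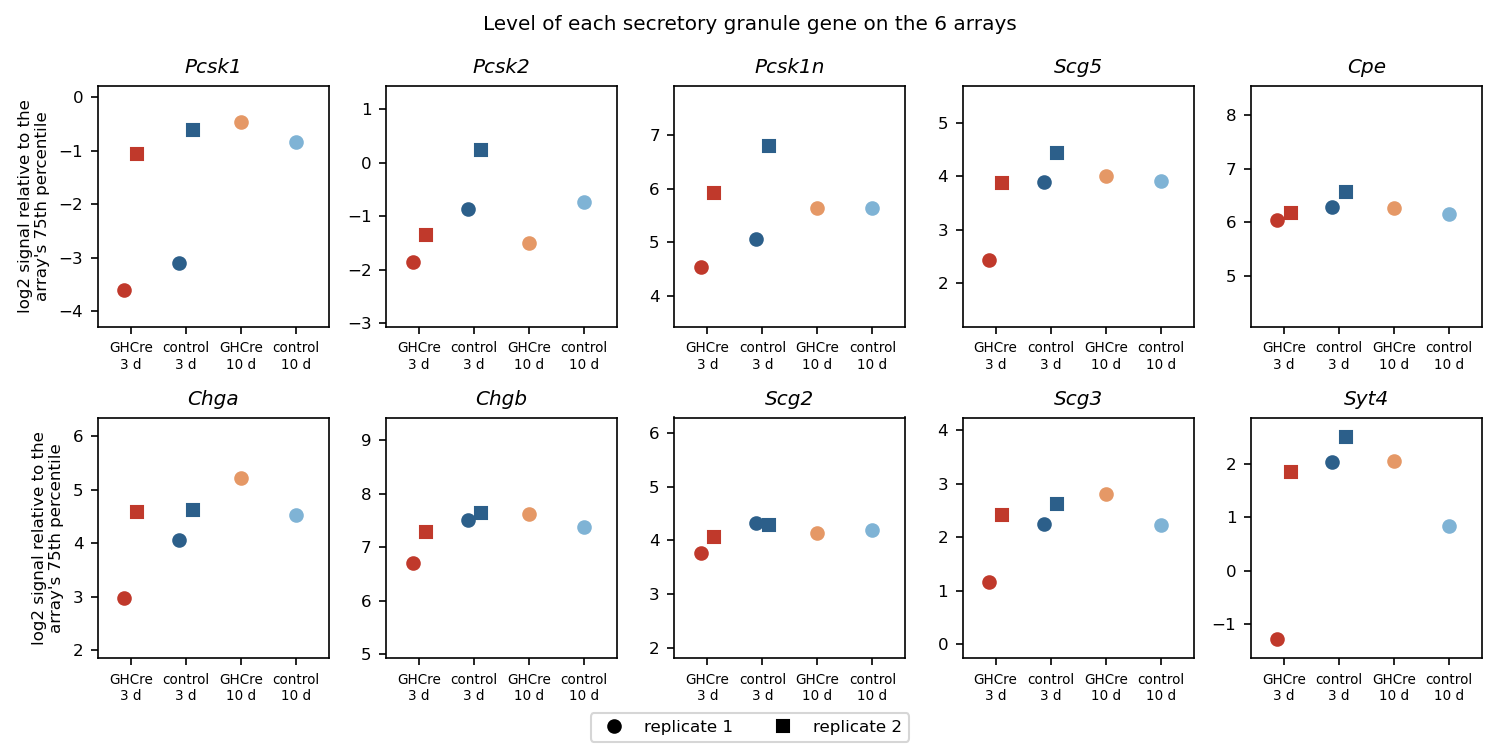
Levels of the 10 genes on the 6 arrays. The y axes give the log2 level, with the 75th percentile of the array as 0 and the same span in every panel, and each point is 1 array (circle, replicate 1; square, replicate 2). Replicate 1 of the GHCre group of 3 days is the lowest point in all 10 panels.

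Pcsk1 encodes prohormone convertase 1/3, which makes the first cuts in many hormone precursors. Its level was -3.61 and -1.07 in the GHCre arrays of 3 days, against -3.10 and -0.61 in the controls. The groups overlapped, and the replicates of each group lay 2.54 (GHCre) and 2.50 (control) apart, far more than the difference of -0.49 ± 1.32 (SE). Within each slide the difference was close to that mean, at -0.51 on slide 1 and -0.46 on slide 3. After 10 days Pcsk1 stood at -0.47 in the GHCre array, against -0.83 in the control, and the GHCre array was the highest of the 6.

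Pcsk2 encodes prohormone convertase 2, which makes the later cuts, for instance in the melanotropes of the intermediate lobe. Its level was -1.86 and -1.35 in the GHCre arrays of 3 days, against -0.87 and 0.23 in the controls. The groups did not overlap, and the difference of -1.29 ± 0.58 was 2.44-fold lower in GHCre, with a 95% interval of -2.90 to 0.32 and a limma adjusted p of 0.803. Pcsk2 was also the only convertase of the pair to be lower in GHCre after 10 days, at -1.49 in the GHCre array, against -0.73 in the control.

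The second Pcsk2 probe gave another picture. It was well above background on 1 array alone, the GHCre array of 10 days, where its level was -3.71, against a measured -5.89 in the control of 10 days. Setting that control at its array's lowest signal above background made the probe at least 1.17-fold higher in GHCre, while the brighter probe was lower. With the mean of both probes the difference of Pcsk2 after 10 days turned to 0.71. That mean uses the measured -5.89 of the control, which was not well above background, and not the bound.

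Pcsk1n encodes proSAAS, a granule protein that can inhibit Pcsk1. Its level was 4.54 and 5.92 in the GHCre arrays of 3 days, against 5.06 and 6.81 in the controls. The groups overlapped, and the difference was -0.70 ± 0.88. After 10 days the 2 arrays stood at 5.63 in GHCre and 5.64 in control, the closest pair of the 10 genes.

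Scg5 encodes 7B2, a chaperone that Pcsk2 needs to become active. Its level was 2.43 and 3.88 in the GHCre arrays of 3 days, against 3.89 and 4.44 in the controls. Both GHCre arrays were below both controls, with replicate 2 of GHCre nearly level with replicate 1 of the controls, and the difference was -1.01 ± 0.67 with a limma adjusted p of 0.863. After 10 days Scg5 was at 4.01 in the GHCre array, against 3.91 in the control.

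Cpe encodes carboxypeptidase E, which removes the basic residues that the convertases leave. Its level was 6.03 and 6.17 in the GHCre arrays of 3 days, against 6.29 and 6.56 in the controls. The groups did not overlap, and the difference of -0.32 ± 0.41 was the smallest of the 10, as was its range of 0.52 over the 6 arrays. The 2 other Cpe probes were lower in GHCre as well, with differences of -0.23 for the overlapping probe and -0.55 for the upstream probe in a fit over 27252 probes. The overlapping probe read 5.36 and 5.35 in GHCre, against 5.38 and 5.79 in the controls. The upstream probe read 0.28 and 0.44 in GHCre, against 0.66 and 1.18 in the controls. The 3 probes thus shared the direction after 3 days. After 10 days the 3 differences were between 0.016 and 0.22.

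Chga encodes chromogranin A, an acidic protein that condenses in the granule core. Its level was 2.98 and 4.59 in the GHCre arrays of 3 days, against 4.06 and 4.63 in the controls. The replicate 2 arrays were nearly level, so that the difference of -0.56 ± 0.72 came with -1.08 on slide 1 and -0.033 on slide 3. After 10 days Chga was at 5.22 in the GHCre array, its highest of the 6, against 4.52 in the control.

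Chgb encodes chromogranin B, the sister granin. Its level was 6.70 and 7.29 in the GHCre arrays of 3 days, against 7.51 and 7.65 in the controls. The groups did not overlap, but the replicates of GHCre lay 0.58 apart, as much as the difference of -0.58 ± 0.45. After 10 days Chgb was at 7.62 in the GHCre array, against 7.39 in the control.

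Scg2 encodes secretogranin II, the precursor of secretoneurin. Its level was 3.76 and 4.07 in the GHCre arrays of 3 days, against 4.33 and 4.28 in the controls. The groups did not overlap, and the difference of -0.39 ± 0.41 was 1.30 times the larger of the replicate gaps, the highest such ratio of the 10. For Pcsk2 and Cpe this ratio was 1.18 and 1.21, and for the other 7 genes it was below 1. After 10 days Scg2 was at 4.14 in the GHCre array, against 4.20 in the control.

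Scg3 encodes secretogranin III, which links chromogranin A to the granule membrane. Its level was 1.17 and 2.42 in the GHCre arrays of 3 days, against 2.26 and 2.62 in the controls. The groups overlapped, and the difference was -0.64 ± 0.60. After 10 days Scg3 was at 2.81 in the GHCre array, against 2.24 in the control.

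Syt4 encodes synaptotagmin 4, a synaptotagmin found on dense core vesicles. Its level was -1.27 and 1.84 in the GHCre arrays of 3 days, against 2.03 and 2.49 in the controls. Both GHCre arrays were below both controls, but replicate 1 of GHCre stood 3.11 below replicate 2. The difference of -1.98 ± 1.18, which is 3.94-fold lower, was -3.31 on slide 1 and -0.65 on slide 3, with a 95% interval of -5.24 to 1.28 and a limma adjusted p of 0.859. After 10 days Syt4 was at 2.05 in the GHCre array, against 0.83 in the control.

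**Figure D2:**
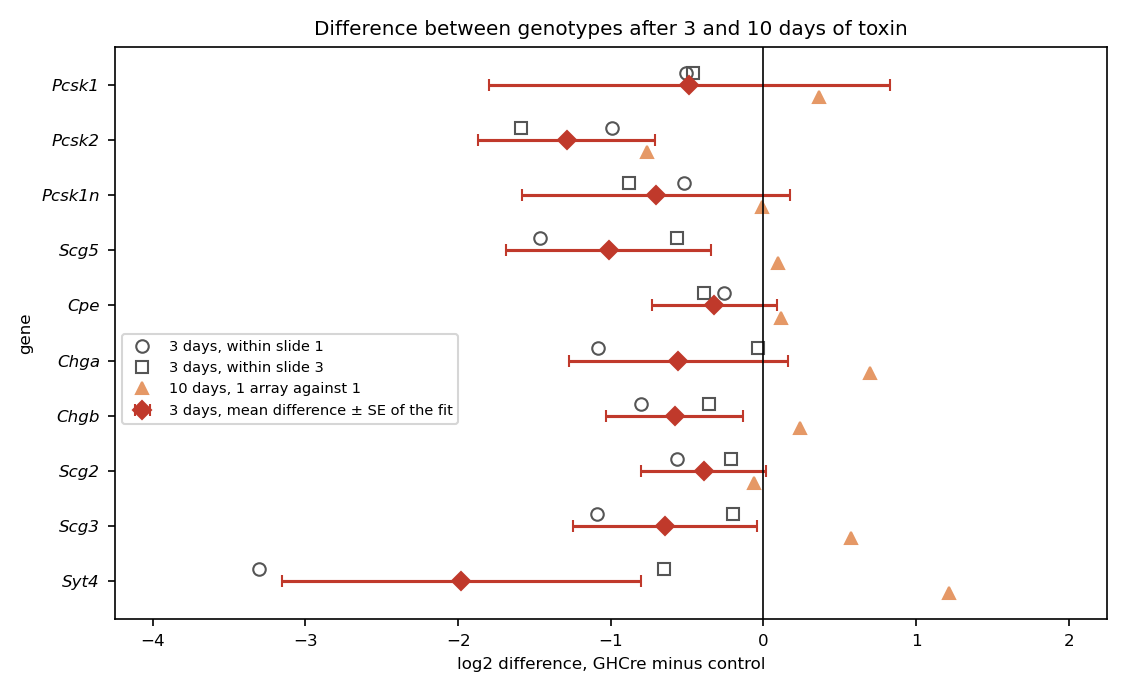
Log2 difference of GHCre minus control for each gene. Diamonds with bars are the 3 day mean difference ± SE of the fit (2 arrays a group), open symbols the same difference within slide 1 and slide 3, and triangles the 10 day difference (1 array a group). All diamonds and open symbols lie below 0, whereas 7 of 10 triangles lie above 0.

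After 10 days, with 1 array in each group and no replicate check, 7 of the 10 genes were higher in GHCre, against 49.9% of all genes. The median difference was 0.18, against -0.0017 over all genes. Syt4 had a difference of 1.22, and it was the only one of the 10 to be higher by 1 or more, as were 12.7% of all genes. None of the 10 was lower by 1 or more, against 14.1% of all genes. Pcsk2, Scg2 and Pcsk1n were the 3 with a lower level in GHCre, with differences of -0.76, -0.063 and -0.012 in that order. Pcsk1n turned to 0.039 with normexp background correction and 75th percentile scaling. The 2 arrays lay on different slides, and at 10 days the effect of genotype cannot be told apart from that of slide.

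The difference between the 10 day and the 3 day effects was above 0 for 10 of 10 genes, against 51.4% of all genes, and 0 of the 10 passed the limma test, as did 0% of all genes. Its median was 0.83, against 0.034 over all genes, and it ran from 0.33 for Scg2 to 3.20 ± 2.04 for Syt4. At an unadjusted p under 0.05 it held 0 of the 10 and 835 of all genes, and the adjusted p of all 10 was 1. With 1 of the 3 day arrays left out, its median was 0.38 (GHCre replicate 1), 1.61 (GHCre replicate 2), 1.39 (control replicate 1) or 0.55 (control replicate 2). Leaving out GHCre replicate 1 put 2 genes below 0 (Pcsk1 and Pcsk1n), and leaving out control replicate 2 put 3 there (Pcsk1, Pcsk2 and Pcsk1n).

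Within GHCre, 10 days was compared with 3 days, and this comparison shares its arrays with those above. All 10 genes were higher at 10 days, against 57.4% of all genes, with a median of 0.74, against 0.11 over all genes. The 10 day array lay above both 3 day arrays for 8 of the 10, against 39.2% of all genes, the exceptions being Pcsk2 and Pcsk1n. Pcsk1 had the highest difference, 1.87 ± 1.61, and Syt4 followed with 1.76 ± 1.44. No gene passed the limma test (0 of 10, 0% of all genes, 849 at an unadjusted p under 0.05). The median was 0.17 with GHCre replicate 1 left out, when Pcsk2 and Pcsk1n were below 0, and 1.34 with GHCre replicate 2 left out. Both genes were also below 0 with the slide as a block, and Pcsk2 with normexp and quantile normalization.

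Within controls, 8 of the 10 genes were lower at 10 days than at 3 days, against 44.8% of all genes. The median was -0.23, against 0.095 over all genes. The control of 10 days stood alone on its slide, so here the effect of time cannot be told apart from that of slide. The 10 day control lay between the 3 day controls for 5 genes (40.4% of all genes) and below both for the other 5 (27.2%). Syt4 had the lowest difference, -1.43 ± 1.44, and Pcsk1 the highest, 1.02 ± 1.61. No gene passed the limma test (0 of 10, 0% of all genes, 855 at an unadjusted p under 0.05). The median was -0.39 with control replicate 1 left out. With control replicate 2 left out it was -0.00045, with 5 of the 10 below 0, and with the replicate block 5 of the 10 were below 0 as well.

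The 10 genes can be set beside the hormone genes by array, each gene centred on its own mean over the 6. The median centred level of the 10 genes was -1.07 and 0.14 in the GHCre arrays of 3 days, against 0.088 and 0.52 in the controls. After 10 days it was 0.26 in the GHCre array, against 0.058 in the control. Gh and Pomc, the precursor of corticotropin, did not follow this order. Pomc was at 4.09 and 0.90 in GHCre, against 5.65 and 1.12 in controls, after 3 days, and at 1.93 in GHCre, against 5.79 in control, after 10 days. Both hormone genes were higher on slide 1 than on slide 3 in either genotype, and highest in the control of 10 days. Their ranges over the arrays were 5.66 for Gh and 4.89 for Pomc. The ranges of the 10 genes ran from 0.52 to 3.77 (Syt4).

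Prl, the prolactin transcript, had a range of 0.73. It stood at 10.59 and 10.35 in the GHCre arrays of 3 days, against 11.08 and 11.06 in the controls, with no overlap. The difference was -0.60 ± 0.40, with a limma adjusted p of 0.864. After 10 days Prl was at 10.82 in the GHCre array, against 10.49 in the control. This was the only hormone gene of the 6 tested that was higher in GHCre after 10 days.

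**Figure D3:**
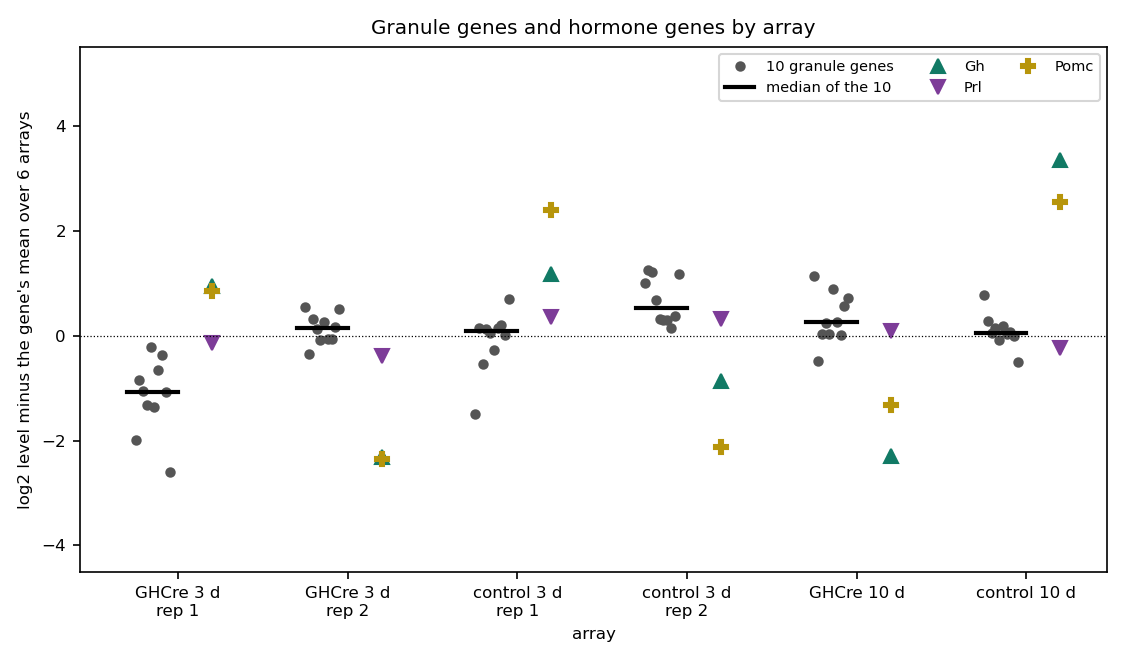
Level of each gene minus its mean over the 6 arrays (log2, y axis) by array (x axis). Grey points are the 10 granule genes, the black line is their median, and symbols are Gh, Prl and Pomc. The granule genes are lowest in replicate 1 of the GHCre group of 3 days, with a median of -1.07, whereas Gh and Pomc are lowest in other arrays.

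Summed markers of several other cell types differed between the genotypes after 3 days without overlap, and their part in the differences above was not tested. Of the fibroblast and mural markers, 6 of 6 were higher in GHCre. Their summed level was 7.90 and 7.62 in the GHCre arrays, against 7.54 and 6.97 in the controls. Of 6 lymphocyte markers, 4 of the 4 tested were higher, with summed levels of 4.94 and 4.88 in GHCre, against 3.69 and 4.30 in the controls, and Ms4a1 was well above background on no array. The 6 endothelial markers summed to 2.66 and 2.35 in GHCre, against 2.12 and 1.95 in the controls, with Tie1 well above background on none. None of these markers passed the limma test.

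Macrophage markers summed to 4.37 and 4.38 in GHCre, against 4.97 and 4.87 in the controls. Of the 6 macrophage markers 4 were higher in GHCre, whereas Csf1r was at 4.29 and 4.18 in GHCre, against 4.93 and 4.75 in the controls, and made up at least 87.1% of the sum on each of these arrays. The 5 melanotrope markers, 1 of which is Pcsk2, summed to 7.26 and 7.21 in GHCre, against 8.0025 and 7.45 in the controls, and Pax7 was well above background on none. Oacyl made up 88.0% and 91.7% of that sum in GHCre, against 78.8% and 94.2% in the controls, while Pomc and Drd2 overlapped between the groups. Pituitary stem cell markers summed to 5.32 and 4.84 in GHCre, against 5.08 and 4.19 in the controls, with overlap. The 4 posterior lobe markers summed to -1.38 and -1.05 in GHCre, against -1.02 and -1.07 in the controls, with Nkx2-1 well above background on none. The 3 red cell markers matched summed to 1.90 and -0.46 in GHCre, against 0.23 and -0.73 in the controls.

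Other genes of the pathway were taken from lists fixed with earlier results in view, and none passed the limma test in any list. The other granule proteins, 11 tested of 13, lay mostly on the same side of 0 as the 10 genes. After 3 days 9 were lower in GHCre, with a median of -0.39, and after 10 days 10 were higher, with a median of 0.45. Vgf, a granin-like precursor, had levels of -0.71 and -0.27 in the GHCre arrays of 3 days, against 0.75 and 0.89 in the controls. Its groups did not overlap, and the difference was -1.30 ± 0.43 (limma adjusted p = 0.747). Resp18, a granule protein of endocrine cells, was at 0.33 and 1.36 in GHCre, against 2.14 and 2.11 in the controls. Ptprn2, a granule membrane protein, was at 1.70 and 2.89 in GHCre, against 3.30 and 3.77 in the controls. All 3 showed no overlap after 3 days, but they were named for the lowest p of the list at that time. Over the whole list both GHCre arrays lay below both controls for 4 of the 11 tested, against 21.3% of all genes. After 10 days Vgf was at 0.47 in GHCre, against -0.56 in control, and Ccdc186, which acts in granule maturation, was at -0.070 in GHCre, against -1.25 in control. The list median of 3 days was -0.95 with GHCre replicate 2 left out, -0.097 with GHCre replicate 1 left out and -0.85 with control replicate 1 left out.

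The other convertases and carboxypeptidases, which work largely outside regulated granules, lay mostly above 0, with 10 of 12 higher in GHCre after 3 days and a median of 0.80. Furin, the convertase of the constitutive pathway, was at 3.24 and 2.74 in GHCre, against 2.27 and 1.72 in the controls, with no overlap. Cpz, a secreted carboxypeptidase, was at 1.20 and 0.12 in GHCre, against -0.86 and -0.19 in the controls. Furin and Cpz were named for a low p after 3 days. Over the list both GHCre arrays lay above both controls for 4 of 12, against 16.6% of all genes. They lay below both for 1, against 21.3%. Cpxm2, a carboxypeptidase-like protein, was well above background in both GHCre arrays and in neither control of 3 days, and was at least 5.04-fold higher in GHCre (limma adjusted p = 0.686), from means of -1.56 in GHCre and -5.01 in control. The list median was 0.20 with normexp background correction and 75th percentile scaling, 0.41 with normexp and quantile normalization, and 0.27 over genes above background on all 6 arrays. After 10 days 8 of 12 were higher, with a median of 0.54. Cpz was then at -1.83 in GHCre, against 0.20 in control.

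Of 26 genes of the exocytosis machinery, 17 were lower in GHCre after 3 days, with a median of -0.43 that turned to 0.15 without replicate 1 of GHCre. Rab3d, a granule GTPase, was at -2.45 and -0.95 in GHCre, against 0.11 and 0.97 in the controls, with no overlap, but it was named for a low p after 3 days. Over the list both GHCre arrays lay below both controls for 4 of the 26, against 21.3% of all genes. They lay above both for 4, against 16.6%. Stx1a, a plasma membrane SNARE, was well above background in both GHCre arrays and in neither control, and was at least 1.26-fold higher in GHCre. Rims2, an active zone scaffold, was well above background in 1 of the GHCre arrays of 3 days and in neither control. After 10 days the median was -0.099, with Stx1a at least 2.1-fold higher in GHCre, and Rab27b, a granule GTPase, at 0.13 in GHCre, against -1.45 in control.

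Of 8 neuroendocrine transcription factors tested of 10, 4 were higher and 4 lower in GHCre after 3 days, with a median of 0.16. That median turned to -0.25 with normexp background correction and 75th percentile scaling, and to -0.16 with the mean of all probes. With 1 array left out it was -0.21 (control replicate 1), 0.40 (GHCre replicate 1), 0.066 (control replicate 2) or 0.034 (GHCre replicate 2). Rest, a repressor of neuronal and granule genes in other cells, was at -0.21 and 0.77 in GHCre, against -0.51 and -2.11 in the controls, with no overlap. It was named for a low p after 3 days. Over the list both GHCre arrays lay above both controls for 1 of 8, against 16.6% of all genes. They lay below both for 1, against 21.3%. Neurod1 was well above background in both GHCre arrays and in neither control, and by group means was at least 1.18-fold higher in GHCre. Its measured levels were near background and overlapped, at -3.52 and -3.74 in GHCre, against -3.54 and -4.76 in the controls. After 10 days the median was 0.74, with Rest at 0.95 in GHCre, against -0.70 in control, and Neurod4 at -0.63 in GHCre, against -1.73 in control.

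Of 6 pituitary hormone genes tested of 7, 4 were lower in GHCre after 3 days, with a median of -0.56, and 5 after 10 days, with a median of -3.78. The sign of the 3 day median depended on single arrays. It was -0.73 (GHCre replicate 1), 0.74 (GHCre replicate 2), 0.77 (control replicate 1) or -1.14 (control replicate 2) with the array in brackets left out. With quantile normalization it was -0.24, with normexp and quantile normalization -0.18, and in the deposited series table -0.25. Tshb, the thyrotropin subunit, was at -0.84 and -0.067 in the GHCre arrays of 3 days, against 0.58 and -0.44 in the controls, with overlap. After 10 days it was at -0.98 in the GHCre array, against 2.30 in the control. Cga, the subunit shared by the glycoprotein hormones, had a difference of 1.15 ± 1.90 after 3 days, also with overlap.

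**Figure D4:**
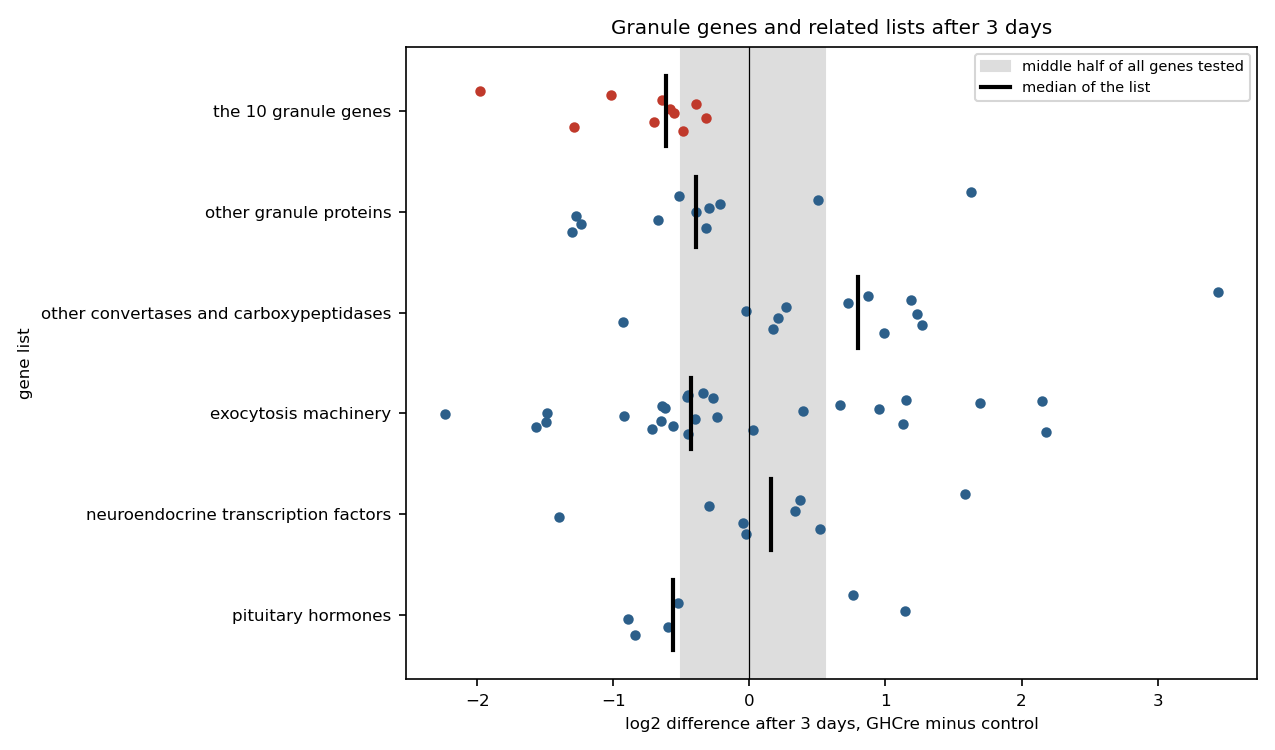
Log2 difference of GHCre minus control after 3 days (x axis) for each gene (point) of the 10 granule genes and of 5 related lists (y axis). Black lines are list medians, and the grey band runs from the 25th to the 75th percentile of all genes tested, -0.50 to 0.56. The 10 granule genes all lie below 0, and the other convertases and carboxypeptidases lie mostly above 0.

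The mean centred profile of the 10 genes over the 6 arrays was compared with every gene with a symbol by root mean square distance, as a description over 6 arrays. Over 16183 genes the median distance was 0.83. The 5 closest were Atp6v0e2 (0.0941), a subunit of the proton pump that acidifies granules, Vmn1r62 (0.104), Bex1 (0.109), Abhd1 (0.109) and Dlk1 (0.115). Vmn1r62 was well above background on 4 of the 6 arrays and on neither replicate 1 array of 3 days, so its profile rests in part on values near background. Dlk1, a membrane protein of the Notch ligand family, was at 5.57 and 6.79 in the GHCre arrays of 3 days, against 6.88 and 7.46 in the controls. After 10 days it was at 6.98 in the GHCre array, against 6.76 in the control. Of the 10 genes themselves Scg5 (0.126) and Scg3 (0.167) lay closest to their common profile, and Pcsk1 (0.822) and Syt4 (0.777) lay farthest. That profile includes each of these genes. Distances were not scaled for range, and Pcsk1 and Syt4 had ranges of 3.14 and 3.77 over the 6 arrays.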

How the data were processed

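RNA of 6 sorted samples was measured on 1-colour arrays. The scans were read by Agilent Feature Extraction 10.7.3.1, per the file headers. Its processed signal, the intensity used here as deposited, has background subtracted and no scaling between arrays. Log2 values of 38017 probes in the deposited series table matched quantile normalized scanner signal (lowest correlation 0.999902); it was an alternative. Spots of a probe were averaged, and log2 signal was taken relative to each array's 75th percentile. A gene's value is that of its brightest probe by mean level, kept if well above background on at least 2 of 6 arrays, which left 21072 genes. The array number limits the precision.

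A mean for each of 4 groups was fitted with limma 3.58.1 in R 4.3.3, and p-values were Benjamini-Hochberg adjusted over all genes at 0.05. The 2 residual degrees of freedom come from the 3 day arrays, and the lone 10 day arrays are assumed to vary like them. The fit was tested on simulated data with independent noise on each array and no slide effect. The 10 genes and all lists were chosen with earlier results of these data known. Named by rule were the 10 genes, Gh, Prl and Pomc, the 3 (3 days) and 2 (10 days) genes of lowest p in each list, and the 5 genes of closest profile, except some not reported here; marker genes named for not being above background, and Csf1r, were chosen after their values were seen. A gene not well above background in a group was set there to at least each array's lowest signal above background, which gives "at least" folds. Some probes not well above background read higher than that signal, so these folds follow from the rule and are not strict limits. Alternatives were quantile normalization, normexp with an offset of 50 under either scaling, the series table, 2 other filters, the mean of all probes, every probe as a feature, 2 variance priors, the replicate number or slide as a block, the 3 day arrays alone, and each 3 day array left out. Summed marker levels are log2 of summed relative signal. Plots used matplotlib 3.10.9 and Python 3.11.15.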

Additional observations from a re-analysis of the deposited data

How the results depend on the processing

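No value of the 10 genes passed the threshold under any alternative. Many alternatives cannot move an estimate. Among the values that did move, direction was kept in 78 of 82 for GHCre against control after 3 days, 39 of 41 after 10 days, 77 of 82 for the difference of effects, 77 of 82 for 10 against 3 days within GHCre and 61 of 72 within controls. Same-numbered arrays of 3 days share a slide. Over all genes the correlation of their deviations from the group means was 0.087, and the numbers were not taken as pairs. That value does not describe the 10 genes, whose median centred level was lower on slide 1 than on slide 3 in both groups. It was -1.07 and 0.14 in GHCre, and 0.088 and 0.52 in the controls. The SE of the fit therefore includes any difference between slides. The replicate block cannot move the differences after 3 days, because each replicate number occurs in both groups. Within controls it turned Pcsk1n to 0.49, Scg3 to 0.20 and Scg5 to 0.24, leaving 5 below 0. With slide as a block, Pcsk1n (-0.38) and Pcsk2 (-0.29) turned within GHCre, 2 in all; contrasts that use the lone control of 10 days could not be fitted. With normexp and quantile normalization Pcsk2 turned to -0.078 there, 1 gene in all. Within controls Scg2 turned to 0.062 with quantile normalization, 0.055 with normexp and quantile normalization and 0.046 in the series table. With these 3 settings the count of genes with both GHCre arrays of 3 days below both controls was 3. After 10 days Pcsk1n turned to 0.039 with normexp and 75th percentile scaling. Pcsk2 turned to 0.71 with the mean of both probes, which uses a control value not well above background. The cause was not tested.

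Leaving out each 3 day array gave ranges after 3 days of -1.36 to 0.25 for Chga, -1.75 to 0.78 for Pcsk1 and -1.57 to 0.17 for Pcsk1n. For the difference of effects they were -0.42 to 2.12 for Pcsk1, -0.18 to 1.56 for Pcsk1n and -0.021 to 1.07 for Pcsk2. Within controls they were -0.10 to 0.46 for Chga, -0.23 to 2.27 for Pcsk1, -1.16 to 0.58 for Pcsk1n, -0.96 to 0.14 for Pcsk2 and -0.53 to 0.020 for Scg5, and within GHCre -0.29 to 1.09 for Pcsk1n and -0.14 to 0.37 for Pcsk2. The median of the 10 genes ran from -1.38 to -0.25 after 3 days and from 0.38 to 1.61 for the difference of effects. The number below 0 ran from 0 to 2 within GHCre, 5 to 10 within controls and 0 to 3 for the difference. List medians after 3 days ran from -0.62 to 0.15 (exocytosis), -0.21 to 0.40 (transcription factors), 0.58 to 0.85 (convertases), -0.95 to -0.097 (other granule proteins) and -1.14 to 0.77 (hormones).

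With normexp and 75th percentile scaling, and with normexp and quantile normalization, list medians after 10 days were 0.19 and 0.22 for the transcription factors and 0.29 and 0.31 for the convertases. After 3 days the convertases were at 0.20 and 0.41 under these settings, and at 0.27 with the filter on all arrays, and the transcription factors at -0.25 with normexp and 75th percentile scaling. With the mean of all probes the transcription factors were at 0.032 after 10 days and -0.16 after 3 days. The median of all genes after 3 days was -0.15 with normexp and 75th percentile scaling and -0.16 with no filter, against -0.037. Only 2 arrays a group after 3 days and 1 after 10 days limit what can be called.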
